A study of Homo sapiens with 78 samples.

Results

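The 7 genes described here encode proteins that bring mRNAs to decay: ZFP36, ZFP36L1 and ZFP36L2 of the ZFP36 family, ZC3H12A and ZC3H12C of the Regnase family, and RC3H1 and RC3H2, the Roquins. They were chosen by gene name, as 7 of the 19652 genes listed in the expression table, and all 7 passed the filter on low values that left 13327 genes for testing. A549 cells, a human lung carcinoma line used as a model of the airway epithelium, were treated in serum-free medium with IL-1β, a proinflammatory cytokine, with budesonide, a synthetic glucocorticoid, or with IL-1β-plus-budesonide (cotreatment), or were not stimulated (NS). IL-1β was used at 1 ng/ml and budesonide at 300 nM, and poly(A) RNA was sequenced after 1, 2, 6, 12 and 24 h, in 78 libraries. These fall into 20 groups, 18 of 4 libraries and 2 of 3 (the 6 h NS cells and the 12 h cotreated cells). Budesonide was dissolved in DMSO and IL-1β in buffered saline with albumin, and the labels do not say that NS cells received either solvent. Levels are given in TPM, a normalized transcript abundance that corrects for transcript length and can be compared between genes.

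ZFP36, also called tristetraprolin, and its paralogs are zinc finger proteins that bind AU-rich elements in cytokine and growth control mRNAs and recruit the CCR4-NOT complex, which removes the poly(A) tail. ZC3H12A, or Regnase-1, is an endonuclease that cuts stem-loops in the same kinds of message, and the Roquins bind such stem-loops and recruit deadenylation and decapping factors. In epithelial cells these proteins are known as brakes on the inflammatory response, and several of them are themselves encoded by short-lived, inducible mRNAs.

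In the libraries as a whole, the deposited values summed to 812680 to 1009499 TPM and 11738 to 12321 genes reached 1 TPM, but the number of reads behind each library is not given by the files. The 5 epithelial markers (KRT8, KRT18, KRT19, EPCAM and CDH1) together held 2181 to 15271 TPM, whereas 3 fibroblast and 3 endothelial markers summed to 2.69 to 19.8 and 0.0184 to 2.05 TPM. The immune markers PTPRC and CD3E and the endothelial marker VWF were below 1 TPM in every library, while the myeloid markers CD14 and LYZ were at 0.108 to 6.25 and 0.0323 to 1.27 TPM and COL1A1, a fibroblast collagen, at 2.19 to 17.7 TPM. Known targets of each agent differed from NS: with IL-1β at 1 h TNFAIP3 was higher than in NS cells by 5.74 ± 0.23 (log2, SE), and with budesonide at 6 h TSC22D3 was higher by 4.36 ± 0.13. TNFAIP3 is not specific to IL-1β, as its mean at 1 h was 5.59 TPM with budesonide, against 2.67 TPM in NS cells. Apart from their groups stood 5 libraries, which were the fourth cotreated library of 1 h, the second cotreated library of 12 h, the second IL-1β library of 24 h, the third budesonide library of 2 h and the second budesonide library of 12 h. Their gene-wise distance to the rest of the group was 0.445 to 0.704 (SD of log2 differences), against at most 0.405 in the other 73 libraries. The members with long transcripts were low in them: ZC3H12C, RC3H1 and RC3H2, with canonical transcripts of 8776, 11451 and 8964 bases, each had their lowest value of the group in all 5 of these libraries and in 15 of the other 73. ZFP36L1 was lowest of the group in 4 of the 5, and ZFP36, ZFP36L2 and ZC3H12A in 3 of the 5, against 16 or 17 of the other 73. As each gene has a single lowest library per group, the count in the other 73 follows from that in the 5. Over 2193 genes with canonical transcripts of at least 6000 bases, the median deviation from the rest of the group was −0.73 to −0.47 (log2) in these 5 libraries and −0.31 to 0.38 in the other 73, while for 3027 genes of at most 2000 bases it was 0.20 to 0.41 and −0.24 to 0.08. The member values that turn on these libraries are given with and without them. At 12 h the NS and IL-1β libraries numbered 2 were kept, though their long-transcript medians were also low, at −0.31 and −0.30. Leaving out the libraries that stand apart thus removed number 2 from only the budesonide and cotreated groups of that time.

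**Figure D1:**
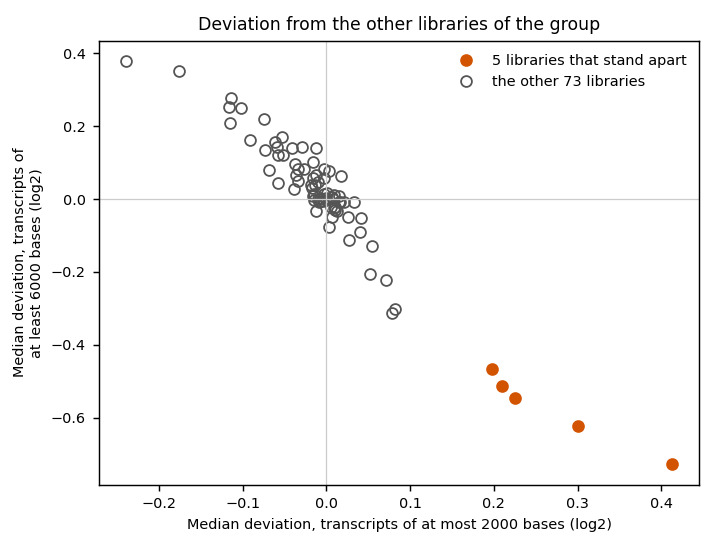
Each point is 1 library. The x axis gives the median log2 deviation from the other libraries of its group over 3027 genes with transcripts of at most 2000 bases, and the y axis the same over 2193 genes with transcripts of at least 6000 bases. The 5 libraries that stand apart lie at the lower right, at −0.73 to −0.47 on the y axis.

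The members lie at chr19:39406847-39409412 on the plus strand (ZFP36), chr14:68787660-68796253 on the minus strand (ZFP36L1), chr2:43222402-43226606 on the minus strand (ZFP36L2), chr1:37474580-37484377 on the plus strand (ZC3H12A), chr11:110093392-110171841 on the plus strand (ZC3H12C), chr1:173931084-174022357 on the minus strand (RC3H1) and chr9:122844556-122905359 on the minus strand (RC3H2), in GENCODE release 44 on GRCh38. Their transcripts shared few 31-base sequences with those of other genes on the same strand, at most 0.962% outside ZFP36L1, where 7.37% were shared, mostly with an overlapping lncRNA. ZFP36L2 shared none on its own strand but 21.7% with an antisense lncRNA, and the sources do not say whether strand was used in quantification, so reads from that stretch cannot be assigned with certainty.

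The 250 bases before the RefSeq start site (GRCh38.p14, 5′ to 3′ on the strand of the gene) are shown for ZFP36 and ZC3H12A, which each agent alone raised by more than 1 on the log2 scale, and for RC3H2, which neither treatment raised by as much as 1 on the log2 scale. Capitals mark TATAA and the NF-κB consensus.
ZFP36: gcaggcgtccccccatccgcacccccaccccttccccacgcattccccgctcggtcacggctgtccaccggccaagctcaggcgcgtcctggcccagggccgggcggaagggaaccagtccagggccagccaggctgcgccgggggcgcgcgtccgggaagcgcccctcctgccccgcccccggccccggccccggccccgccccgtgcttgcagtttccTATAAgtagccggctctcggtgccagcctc
ZC3H12A: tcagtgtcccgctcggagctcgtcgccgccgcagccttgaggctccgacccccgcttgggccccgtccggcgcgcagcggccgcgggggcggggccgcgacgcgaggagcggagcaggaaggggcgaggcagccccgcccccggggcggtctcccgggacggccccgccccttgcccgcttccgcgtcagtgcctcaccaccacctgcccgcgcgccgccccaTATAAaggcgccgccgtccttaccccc
RC3H2: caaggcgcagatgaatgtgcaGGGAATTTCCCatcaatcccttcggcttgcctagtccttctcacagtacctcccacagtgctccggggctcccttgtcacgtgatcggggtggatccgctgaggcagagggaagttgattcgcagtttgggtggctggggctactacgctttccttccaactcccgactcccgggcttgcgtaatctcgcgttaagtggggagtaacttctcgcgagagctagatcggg
These windows are chr19:39406597-39406846, chr1:37474330-37474579 and chr9:122905360-122905609. Promoter windows were found for 6 of the 7 members, 8 windows in all. ZFP36 and ZC3H12A each held TATAA, at positions −30 to −26 and −27 to −23 counted from the start site. The RC3H1 window, chr1:173993073-173993322, lay inside the GENCODE span of the gene. It held TATAA too, at −162 to −158 and, on the other strand, at −62 to −58. Such a match was found somewhere in 18.9% of all 35116 windows on either strand. ZFP36 held 3 and ZC3H12A 5 GC boxes (GGGCGG), which 42.6% of windows hold at least once. ZC3H12C held GC boxes too, at −69 to −64 and −13 to −8. The NF-κB consensus was found in the window of RC3H2, as overlapping matches on both strands, and in 5.21% of all windows. Neither it, the CArG box (1.16% of windows) nor a sequence like the glucocorticoid response element (GNACA and TGTNC with 3 bases between them, 0.327% of windows) was found in the windows of ZFP36 and ZC3H12A. TGACG, the core of the cAMP response element, was found in a window of ZFP36L1, ZC3H12A and ZC3H12C and in 21.2% of all windows.

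In NS cells ZFP36L1 was the most abundant member, at 39.6 ± 6.19 TPM (SD over 19 libraries), and lay above ZFP36L2, the next in order, in all 19. ZFP36L2 followed at 18.7 ± 3.40 TPM, above ZFP36 in 17 of 19 libraries. ZFP36 at 14.2 ± 5.07 TPM and RC3H2 at 13.1 ± 2.06 TPM could not be ordered, as ZFP36 was the higher in only 11 of 19. ZC3H12A at 9.01 ± 2.84 TPM was above RC3H1 at 4.84 ± 1.68 TPM in 17 of 19 libraries, and ZC3H12C was lowest, at 1.69 ± 0.290 TPM, below RC3H1 in all 19. Over time in NS cells no member was called by limma, though 4 had an unadjusted p under 0.05 at some time, where 0.0075%, 0.0225%, 0.0825% and 0.63% of tested genes were called at 2, 6, 12 and 24 h against 1 h. A gene is said to pass at an adjusted p of 0.05 or less by limma with Benjamini-Hochberg adjustment over all tested genes, and to be called when it also differed by at least 1 on the log2(TPM + 0.5) scale. At 24 h ZC3H12A and ZFP36L2 passed against 1 h, higher by 0.76 ± 0.18 and 0.49 ± 0.12 (log2, SE). The NS libraries numbered 4 had the highest ZFP36 and ZC3H12A value at each of the 5 times.

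**Figure D2:**
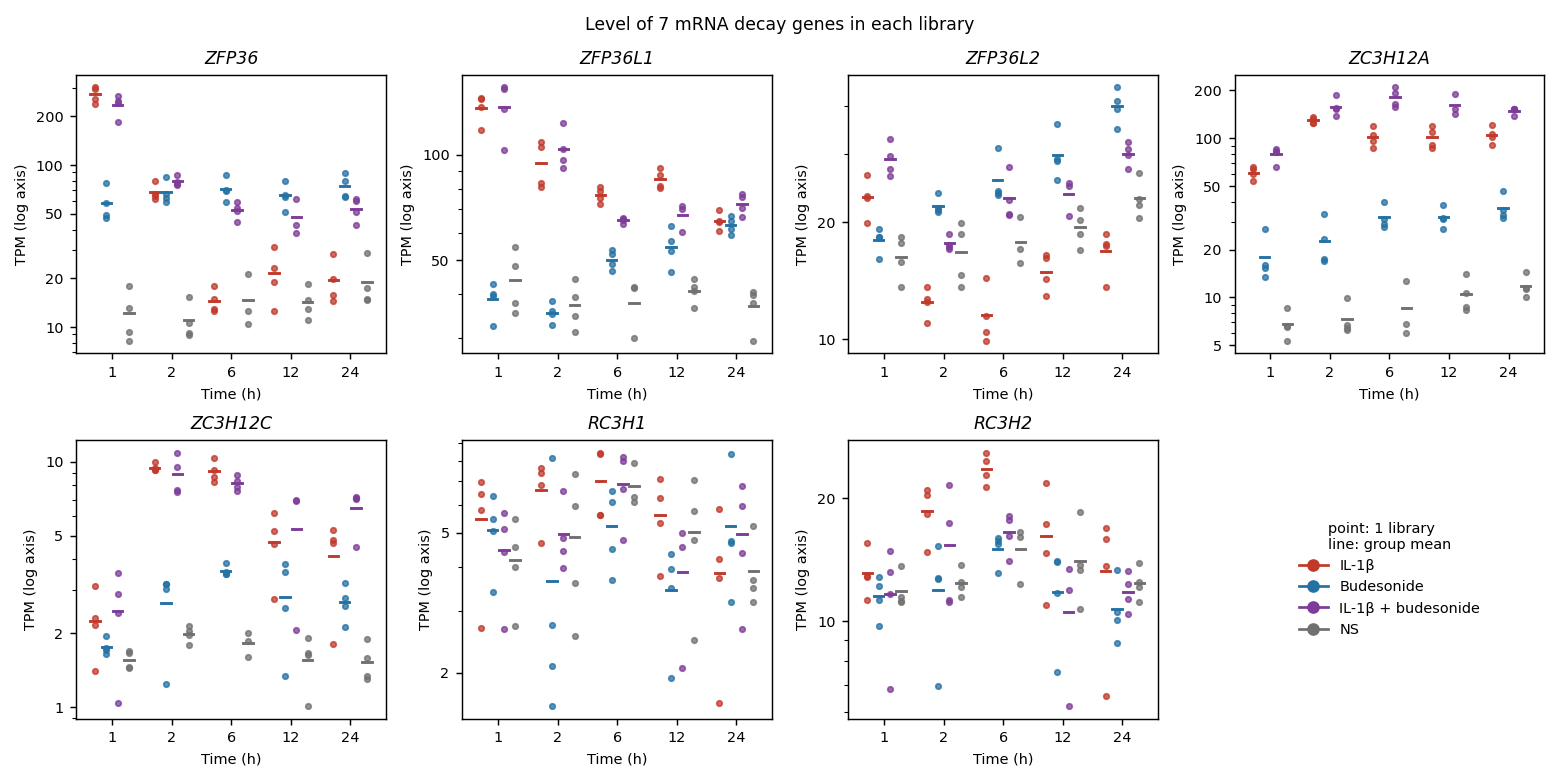
TPM of each member (log axis) in every library against time, with IL-1β, budesonide, IL-1β-plus-budesonide and NS from left to right at each time. Points are libraries and short lines are group means. ZFP36 reached a mean of 273 TPM with IL-1β at 1 h, and ZC3H12A 181 TPM with IL-1β-plus-budesonide at 6 h, while the treated and NS libraries of RC3H1 overlapped at every time.

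The comparison with NS at each time asks how each agent alone changed the mRNA of these proteins. With IL-1β, 3, 4, 3, 3 and 2 of the 7 members were called higher at 1, 2, 6, 12 and 24 h, where 1.02%, 2.82%, 5.21%, 3.65% and 3.76% of tested genes were. With budesonide 2 members were called higher at every time, ZFP36 and ZC3H12A, where 0.18%, 0.683%, 2.9%, 3.01% and 4.1% of tested genes were. With IL-1β-plus-budesonide 3, 4, 3, 3 and 3 were, where 1.07%, 2.86%, 4.78%, 3.39% and 4.28% of tested genes were. The comparisons of IL-1β, budesonide and IL-1β-plus-budesonide with NS share the NS libraries of each time. In bulk RNA, more cells that hold a message and more message per cell cannot be told apart.

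ZFP36 had the highest single level of any member. Its values with IL-1β at 1 h were 239, 256, 294 and 303 TPM, against 9.32, 8.25, 13.0 and 18.0 TPM in NS cells. Every IL-1β library was thus far above every NS library, and the difference was 4.49 ± 0.22 (log2, SE; adjusted p = 1.79e-26). At 2 h the IL-1β libraries held 79.9, 66.4, 61.5 and 64.0 TPM, against 9.19, 8.90, 10.6 and 15.2 TPM in NS cells, a difference of 2.60 ± 0.22. By 6 h they held 13.0, 12.5, 14.9 and 17.8 TPM, against 12.6, 10.4 and 21.2 TPM in NS cells. The 6 h groups overlapped, with a difference of 0.03 ± 0.24 (limma adjusted p = 0.928), and ZFP36 did not pass with IL-1β at 12 or 24 h either (0.52 ± 0.22 and 0.06 ± 0.22). At 12 h it passed when the replicate number was fitted as a block (limma adjusted p = 0.00115) and without the libraries that stand apart (0.0468). The IL-1β response at 6 h minus that at 1 h was −4.46 ± 0.32 (log2, SE; limma adjusted p = 4.63e-18).

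With budesonide, ZFP36 was below its IL-1β level at 1 h and was called higher than in NS cells at all 5 times. The budesonide libraries held 46.9, 49.3, 58.5 and 77.1 TPM at 1 h, against 9.32, 8.25, 13.0 and 18.0 TPM in NS cells. At 24 h they held 79.6, 63.9, 64.3 and 89.9 TPM, against 17.3, 14.8, 14.9 and 28.8 TPM. The groups did not overlap at any time, and the differences were 2.24, 2.60, 2.28, 2.15 and 1.98 at 1, 2, 6, 12 and 24 h (log2, each with an SE of 0.22 or 0.24). The budesonide response at 6 h differed from that at 1 h by 0.04 ± 0.32 (limma adjusted p = 0.987).

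With IL-1β-plus-budesonide, ZFP36 followed IL-1β at 1 h and lay nearer to budesonide at 6, 12 and 24 h. At 2 h it differed from each agent alone by 0.23 ± 0.22, which did not pass in either comparison. At 1 h the cotreated libraries held 186, 242, 248 and 266 TPM, against 239, 256, 294 and 303 TPM with IL-1β alone, and the groups overlapped (−0.22 ± 0.22). At 6 h cotreated cells held 52.2, 44.4, 54.5 and 59.1 TPM, against 13.0, 12.5, 14.9 and 17.8 TPM with IL-1β alone. All cotreated libraries were higher, by 1.82 ± 0.22 (limma adjusted p = 3.65e-10), and at 12 and 24 h the difference was 1.17 ± 0.24 and 1.46 ± 0.22. At 12 h the call was lost without IL-1β library number 2 (0.95) or without IL-1β-plus-budesonide library number 4 (0.97), each still past the test. These were the only members' calls of cotreatment against IL-1β, 1 each at 6, 12 and 24 h, where 2.93%, 3.04% and 3.21% of tested genes were called higher and where none of the members was called at 1 or 2 h (0.15% and 0.773%). Against budesonide alone, cotreated cells were higher at 1 h by 2.03 ± 0.22 and differed by −0.43 ± 0.22, −0.46 ± 0.24 and −0.46 ± 0.22 at 6, 12 and 24 h, none of which passed. With the replicate number as a block all 3 of these later differences passed (limma adjusted p = 0.00893, 0.0228 and 0.00972).

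**Figure D3:**
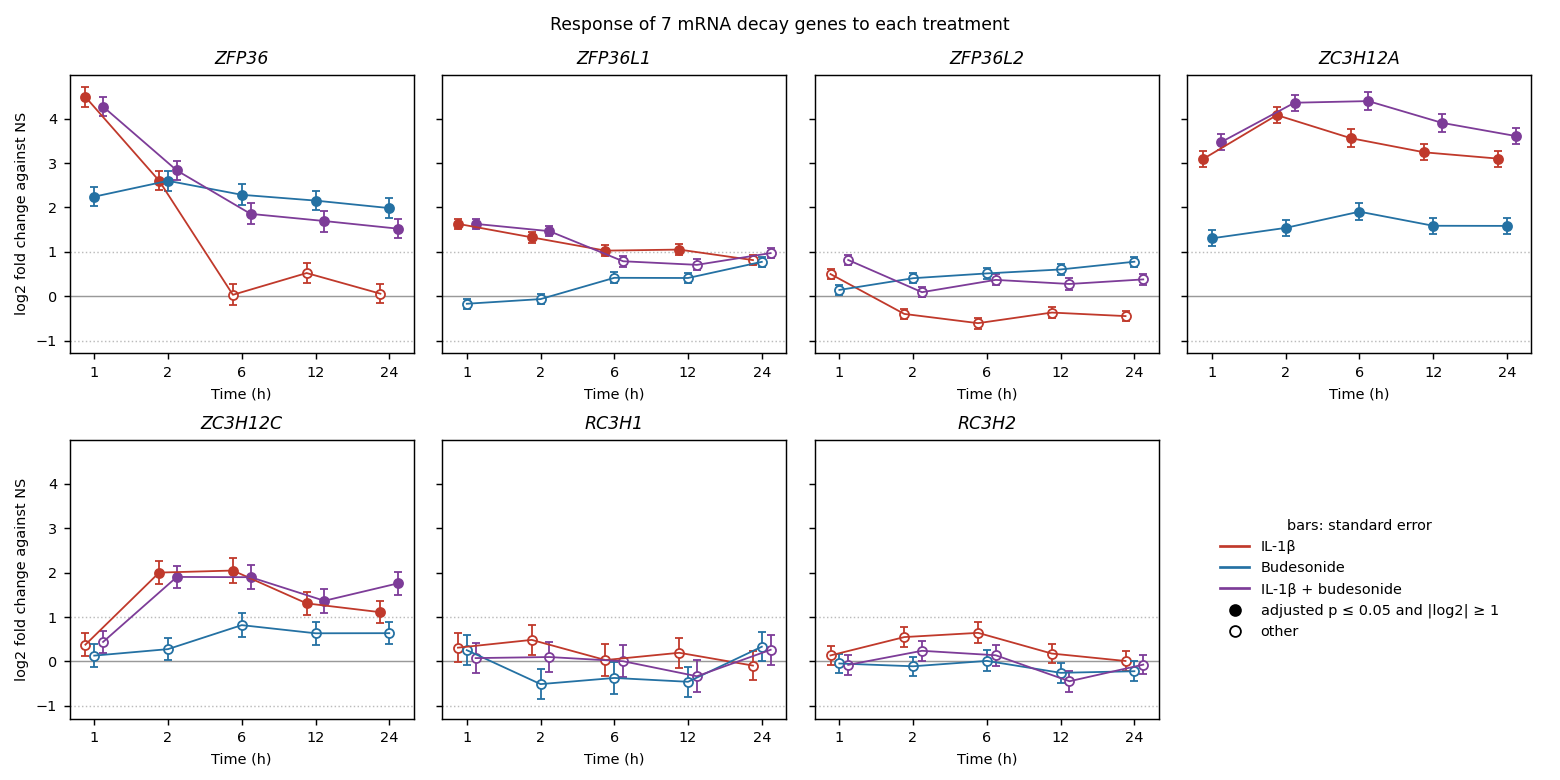
Log2 fold change against NS (y axis, with SE bars) of each member at each time (x axis) for IL-1β, budesonide and IL-1β-plus-budesonide. Filled points passed at an adjusted p of 0.05 or less with a difference of at least 1. For ZFP36 the IL-1β line lay at 4.49 at 1 h and 0.03 at 6 h, while the budesonide line stayed between 1.98 and 2.60.

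ZFP36L1, the paralog with the highest level in NS cells, was raised by IL-1β at all 5 times. At 1 h the IL-1β libraries held 137, 145, 145 and 118 TPM, against 37.9, 48.4, 54.8 and 35.5 TPM in NS cells. The groups did not overlap, and the differences were 1.63, 1.33, 1.03, 1.05 and 0.81 at 1, 2, 6, 12 and 24 h (log2, SE 0.12 or 0.13), the last of which passed but was below 1. The calls at 6 and 12 h were close to the limit and were lost under quantile normalization (0.90 and 0.99) and without the NS library numbered 4 (0.87 and 0.9986). With budesonide ZFP36L1 did not pass at 1 or 2 h (−0.17 ± 0.12 and −0.07 ± 0.12) and was higher by 0.41, 0.41 and 0.77 at 6, 12 and 24 h, each passing (SE 0.12 or 0.13). With cotreatment it was higher than in NS cells by 1.63, 1.46, 0.79 and 0.71 at 1, 2, 6 and 12 h, each passing, and was called at 1 and 2 h. With cotreatment at 24 h it was higher by 0.97 ± 0.12 and was called without NS library number 2 or 3 or cotreated library number 4 (1.0203, 1.0115 and 1.0130). Against IL-1β alone, cotreated cells were lower at 12 h by −0.34 ± 0.13 (limma adjusted p = 0.0297), and the difference did not pass at the other times. At 24 h its means with IL-1β, budesonide and IL-1β-plus-budesonide were 65.0, 63.2 and 72.6 TPM, against 37.0 TPM in NS cells.

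ZFP36L2 moved in opposite directions with the agents from 2 h on. At 6 h the IL-1β libraries held 10.4, 9.92, 14.4 and 11.5 TPM, against 17.1, 15.7 and 20.6 TPM in NS cells. All IL-1β libraries were lower, and the difference was −0.61 ± 0.13 (limma adjusted p = 5.38e-05). At 1 h it was higher with IL-1β, by 0.50 ± 0.12, and at 2, 12 and 24 h lower, by −0.40, −0.37 and −0.45, each passing. With budesonide at 24 h the libraries held 41.1, 34.9, 44.6 and 39.1 TPM, against 22.2, 20.5, 23.0 and 26.8 TPM in NS cells, a difference of 0.78 ± 0.12 with no overlap, and at 2, 6 and 12 h it was higher by 0.41, 0.51 and 0.60. The 2 h budesonide value passed (limma adjusted p = 0.0288), but not without the libraries that stand apart (0.37, limma adjusted p = 0.0688). Cotreated cells were above cells given IL-1β alone by 0.49, 0.98, 0.64 and 0.83 at 2, 6, 12 and 24 h, all passing and none called. The 6 h value was called without cotreated library number 2 or 4 or IL-1β library number 3 (1.02, 1.02 and 1.08).

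The makeup of the summed ZFP36 family message therefore differed between treatments. With IL-1β at 1 h the 3 paralogs summed to 432 ± 28.1 TPM, of which ZFP36 was 63.0 ± 3.50%, against 72.6 ± 9.37 TPM and 16.7 ± 5.81% in NS cells (SD, n = 4 each). With IL-1β at 6 h the sum was 103 ± 1.44 TPM and ZFP36L1 held 74.7 ± 3.61% of it (n = 4), against 70.5 ± 2.37 TPM and 53.9 ± 10.7% in NS cells (n = 3). With budesonide at 24 h the sum was 178 ± 15.0 TPM and ZFP36 held 41.7 ± 4.23%, against 79.1 ± 4.12 TPM and 23.7 ± 6.91% in NS cells (n = 4 each). These shares were not tested.

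**Figure D4:**
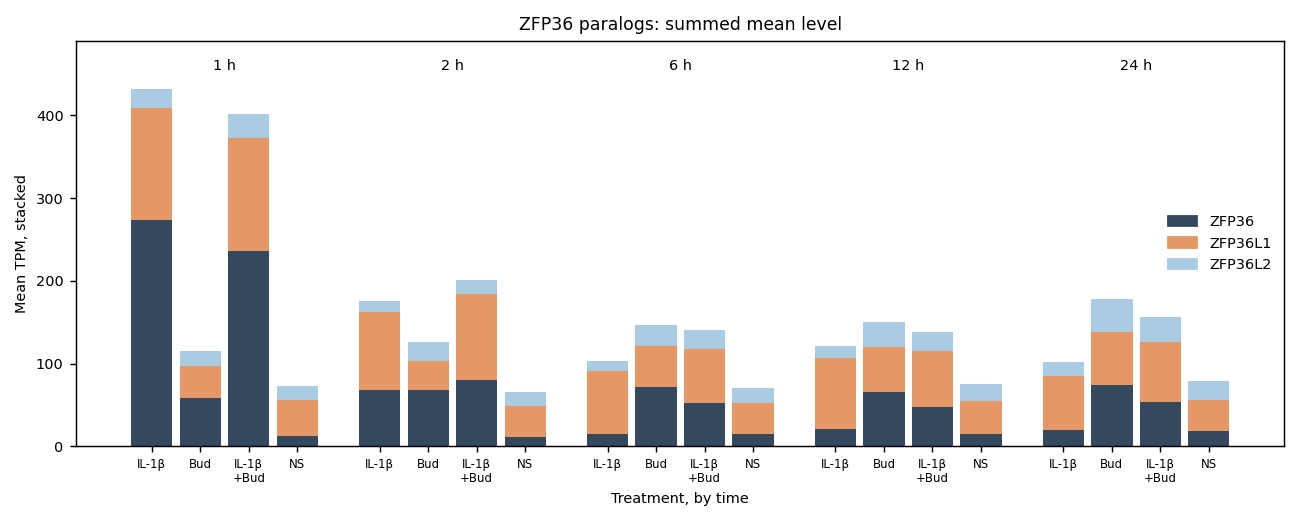
Mean TPM of ZFP36, ZFP36L1 and ZFP36L2, stacked (y axis), for each treatment at each time (x axis), with NS last. The sum was 432 TPM with IL-1β at 1 h, most of it ZFP36, and 103 TPM with IL-1β at 6 h, most of it ZFP36L1.

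ZC3H12A, the Regnase whose protein also cuts its own mRNA, was raised by both agents at all 5 times. With IL-1β at 2 h its values were 125, 125, 133 and 137 TPM, against 6.27, 6.40, 6.73 and 9.91 TPM in NS cells. The groups were far apart, and the differences with IL-1β were 3.09, 4.08, 3.56, 3.24 and 3.10 at 1, 2, 6, 12 and 24 h (log2, SE 0.18 or 0.20). Unlike that of ZFP36, the IL-1β response of ZC3H12A at 6 h was not below that at 1 h (0.47 ± 0.27, limma adjusted p = 0.19, and 0.0296 with the replicate block). With budesonide at 6 h it held 29.1, 27.8, 31.2 and 39.7 TPM, against 6.85, 6.02 and 12.7 TPM in NS cells, with no overlap and a difference of 1.90 ± 0.20 (limma adjusted p = 3.4e-12). At the other times the budesonide differences were 1.30, 1.54, 1.59 and 1.58, each called.

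Cotreated cells held the most ZC3H12A. At 6 h they held 165, 158, 193 and 210 TPM, against 95.8, 86.9, 119 and 104 TPM with IL-1β alone and 29.1, 27.8, 31.2 and 39.7 TPM with budesonide alone. Every cotreated library was above every library of either agent alone, by 0.83 ± 0.18 over IL-1β (limma adjusted p = 0.000172) and 2.49 ± 0.18 over budesonide. Over IL-1β the difference passed at 12 and 24 h too (0.66 ± 0.20 and 0.51 ± 0.18), though at 24 h not without the libraries that stand apart (0.44, limma adjusted p = 0.0657). At 1 and 2 h it did not pass (0.38 and 0.28), although the groups did not overlap. The limma adjusted p was 0.545 at 2 h, and with the replicate block it was 0.147 at 1 h and 0.167 at 2 h. Against budesonide alone, 3, 3, 2, 1 and 2 members were called higher at 1, 2, 6, 12 and 24 h, where 0.855%, 2.56%, 3.01%, 1.58% and 1.67% of tested genes were, and ZC3H12A was among them each time. ZC3H12C was called there at 6 h (1.08, but 0.995 with a pseudocount of 1 TPM) and not at 12 h (0.73, limma adjusted p = 0.0807, and 0.0328 with the replicate block). Without cotreated library number 2, one of those that stand apart, its 12 h value was 1.24 (limma adjusted p = 0.00123) and 2 members were called, and without all 5 such libraries it was 0.99.

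Whether the agents together did more or less than the sum of both alone was compared on the log2 scale, as the cotreatment change minus the sum of the single changes, and on the TPM scale. Members called were 1, 2, 1, 0 and 1 at 1, 2, 6, 12 and 24 h, all below the sum, where 0.0825%, 0.345%, 1.97%, 1.67% and 1.88% of tested genes were called lower. For ZFP36 the log2 value was −2.46 ± 0.31 at 1 h and −2.37 ± 0.31 at 2 h, and the TPM above NS in cotreated cells was also less than the sum of both single excesses, at 223 TPM against 307 TPM at 1 h and 68.6 TPM against 114 TPM at 2 h. At 12 h ZFP36 passed at −0.98 ± 0.32, but not without the libraries that stand apart (−0.95, limma adjusted p = 0.0739), and it was called when any of 6 single libraries was left out (−1.21 to −1.0012), namely IL-1β number 1 or 2, budesonide number 2, NS number 3 or 4 or cotreated number 4. For ZC3H12A the log2 value was −1.26 ± 0.26, −1.07 ± 0.27 and −1.07 ± 0.26 at 2, 6 and 24 h, while on the TPM scale, which carries no test, cotreated cells held more than the sum, so that the direction depends on the scale. The TPM above NS of ZC3H12A at 6 h was 173 in cotreated cells, against 93.0 for IL-1β plus 23.4 for budesonide. The ZC3H12A call at 6 h was lost without NS library number 1 (−0.96) or 2 (−0.87), IL-1β library number 3 (−0.99) or budesonide library number 4 (−0.96), and that at 24 h without budesonide library number 4 (−0.96), all still past the test. At 12 h ZC3H12A passed at −0.92 ± 0.27 and was called without NS or cotreated library number 4 (−1.07 and −1.04). ZFP36L1 passed below the sum at 6, 12 and 24 h (−0.65, −0.75 and −0.62).

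**Figure D5:**
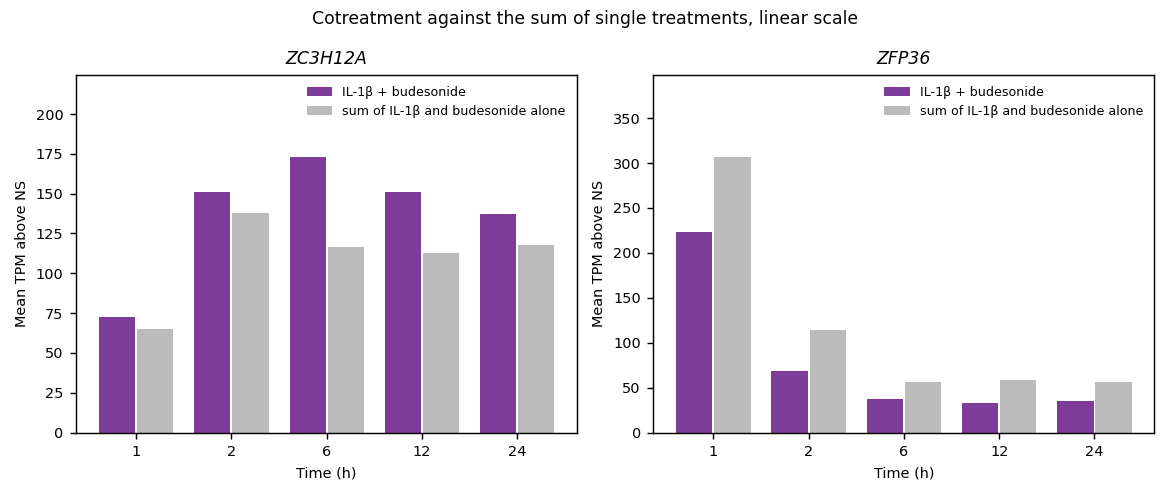
Mean TPM above NS (y axis) in IL-1β-plus-budesonide cells beside the sum of the excesses with IL-1β and with budesonide alone, by time (x axis). For ZC3H12A the cotreated bar is the higher at each time, 173 against 116 TPM at 6 h, and for ZFP36 the lower, 223 against 307 TPM at 1 h. The bars are group means with no test.

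ZC3H12C, the scarcest member in NS cells, was raised by IL-1β with a delay. At 1 h it did not pass (0.38 ± 0.25), with 3.11, 1.41, 2.31 and 2.16 TPM in IL-1β cells, against 1.66, 1.44, 1.70 and 1.46 TPM in NS cells. At 2 h the IL-1β libraries held 9.93, 9.26, 9.43 and 9.22 TPM, against 2.05, 2.14, 1.79 and 1.97 TPM, a difference of 2.00 ± 0.25 with no overlap. At 24 h they held 4.80, 1.80, 4.65 and 5.27 TPM, against 1.59, 1.30, 1.35 and 1.90 TPM in NS cells. There the second IL-1β library, one of those that stand apart, lay inside the NS range, and the difference was 1.11 ± 0.25 with it and 1.42 without these libraries. That 24 h call was also lost with a pseudocount of 1 TPM (0.96) and without IL-1β library number 4 (0.98). Cotreated cells were higher than NS cells by 1.91, 1.90, 1.37 and 1.76 at 2, 6, 12 and 24 h, and the 12 h value was 1.88 without the libraries that stand apart. At 1 h the cotreatment difference was 0.44 ± 0.25 and did not pass, and without these libraries it was 0.73 (limma adjusted p = 0.00202). With budesonide alone ZC3H12C passed at 6 and 24 h (0.82 ± 0.27 and 0.64 ± 0.25) and was not called. At 2 and 12 h, where the budesonide groups each hold a library that stands apart, it did not pass (0.28 and 0.64, limma adjusted p = 0.785 and 0.0528), whereas without these libraries it did (0.54 and 0.89, limma adjusted p = 0.0379 and 1.11e-05). The 12 h value also passed with the replicate block (limma adjusted p = 0.0262). Its IL-1β response at 6 h was above that at 1 h by 1.67 ± 0.37, and its cotreatment response by 1.46 ± 0.37. Changes of the response with time were called for 3 members with IL-1β between 1 and 6 h, where 8.7% of tested genes were, and for 2 with cotreatment, where 6.31% were. None was called with budesonide between 1 and 6 h (3.05% of tested genes), nor between 6 and 24 h with IL-1β, budesonide or cotreatment (7.09%, 4.41% and 5.58%). Between 6 and 24 h the ZC3H12C change with IL-1β, −0.94, was called without IL-1β library number 1, 3 or 4 of 24 h (−1.03, −1.02 and −1.07), and the ZC3H12A change with cotreatment, −0.79, without NS library number 4 of 6 h (−1.10).

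The Roquins changed little. RC3H1 passed in none of the 40 comparisons by limma, nor was any unadjusted p under 0.05, and its spread was the largest of the members, with a residual SD of 0.482 (log2), against 0.203 for the median tested gene. Its differences from NS ranged from 0.49 ± 0.33 with IL-1β to −0.51 ± 0.33 with budesonide, both at 2 h, and the budesonide value was −0.26 without the libraries that stand apart. Cotreated cells differed from budesonide cells at 2 h by 0.61 ± 0.33, which became 1.04 and was called without budesonide library number 2 (limma adjusted p = 0.0287), whose RC3H1 value of 8.15 TPM was far above the others. RC3H2 was higher with IL-1β at 6 h, where it held 21.2, 22.7, 25.8 and 24.6 TPM, against 12.4, 16.1 and 16.5 TPM in NS cells. The groups did not overlap, the difference was 0.65 ± 0.24 (limma adjusted p = 0.0216), and it did not pass without NS library number 1 (0.52) or IL-1β library number 3 (0.60). At 12 h RC3H2 was lower in cotreated cells than with IL-1β alone by −0.62 ± 0.24 (limma adjusted p = 0.0355), with 13.4, 6.23 and 11.9 TPM against 17.3, 11.0, 21.8 and 14.7 TPM. The groups overlapped, and without the libraries that stand apart the difference was −0.30 (limma adjusted p = 0.231). That fit left out the cotreated library numbered 2 but kept the IL-1β library numbered 2, which held 11.0 TPM.

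The genes whose 20 group means were most like those of each member, by Pearson's r on the log2 scale, differed between members. For ZFP36 they were RHOB (r = 0.92), KLF6 (0.91) and PIM3 (0.86), and for ZFP36L1 KLF3 (0.93), PNRC1 (0.93) and SOCS3 (0.92). For ZFP36L2 they included FOS (0.90) and JADE1 (0.89). For ZC3H12A they were BIRC3 (0.97), SERPINA3 (0.96) and SIRT6 (0.94), and for ZC3H12C PALM2AKAP2 (0.98), CFLAR (0.96) and SRSF12 (0.95). For RC3H1 they were SMAD5 (0.87), ZNF106 (0.85) and CACUL1 (0.84), and for RC3H2 SENP5 (0.92), DNAJA2 (0.91) and CLEC2D (0.91). Among the members the highest values were 0.85 between ZC3H12A and ZC3H12C and 0.76 between RC3H1 and RC3H2. These are descriptions over 20 means that share treatments and times.

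Most of the listed genes of deadenylation, decapping, exosome decay and AU-rich element binding outside the members were not called with either agent. Of 24 decapping, exosome and related decay genes and of 11 other proteins that bind AU-rich elements, none was called at any time with IL-1β or budesonide against NS, where 7.53% of tested genes were called higher and 8.8% lower with IL-1β at some time, and 4.87% and 6.36% with budesonide. With IL-1β 15 of the 24 and 7 of the 11 passed in limma at some time, where 64.5% of tested genes did, and 16 and 8 had an unadjusted p under 0.05, where 75.4% did. With budesonide 7 and 5 passed, where 47.3% of tested genes did, and 7 and 7 had such a p, where 61.1% did. Of 19 deadenylation genes 1 was called higher and 1 lower with IL-1β, and 2 higher with budesonide (TOB2 and BTG1). BTG2, an antiproliferative adaptor of CCR4-NOT, was the one higher with IL-1β, by 2.05 ± 0.14 at 1 h, and the related TOB1 was lower at 2 h by −1.57 ± 0.16. Of 20 genes that regulate the members' proteins, 3 were called higher with IL-1β (DUSP1, TANK and IKBKE) and 1 with budesonide (DUSP1). DUSP1, a phosphatase that switches off the kinase pathway that inactivates ZFP36, was higher with IL-1β at 1 h by 2.78 ± 0.12 and with budesonide at 24 h by 3.19 ± 0.12. Of 5 tested relatives of the members, 2 were called higher with IL-1β (N4BP1 and ZC3HAV1) and 1 lower (NYNRIN), and none in limma with budesonide, where 3 had an unadjusted p under 0.05. N4BP1, an endonuclease, was higher with IL-1β at 6 h by 1.02 ± 0.14. TOB2, BTG1, TANK, IKBKE, ZC3HAV1 and NYNRIN were chosen for naming after their values were seen.

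Of 22 known target mRNAs of ZFP36 proteins, 19 were called higher with IL-1β at some time and none lower, where 7.53% and 8.8% of tested genes were. With cotreatment against IL-1β alone, 18 of the 22 were called lower at some time and 1, FOS, higher, where 5.60% and 5.15% of tested genes were. At 6 h their median was −2.91, beside 0.02 for all tested genes. CXCL8, a neutrophil chemokine, differed by −3.48 ± 0.22, IL6 by −4.00 ± 0.25 and PTGS2, the inducible prostaglandin synthase, by −4.02 ± 0.31. Cotreated means of CXCL8, IL6 and PTGS2 at 2 h were 391, 0.791 and 124 TPM, against 822, 3.37 and 449 TPM with IL-1β alone. ZFP36 itself differed between these groups by 0.23 ± 0.22 at 2 h, which did not pass, and by 1.82 ± 0.22 at 6 h. Whether target levels follow ZFP36 was not tested. Of 17 listed targets of Regnase and Roquin proteins, 13 passed the filter and were tested. All 13, of which ZC3H12A itself is 1, were called higher with IL-1β at some time (7.53% of tested genes). TNF and IL6, which are on both lists, had means of at most 0.0299 TPM in the NS groups. They passed the filter only through libraries given IL-1β, so the counts partly follow from the filter. With cotreatment against IL-1β 9 were called lower (5.60% of tested genes). NFKBIZ, which encodes an NF-κB cofactor, was not among these 9, with a difference of −0.94 ± 0.24 at 6 h. The shares are over all tested genes and not over genes raised by IL-1β, so these counts do not set the listed targets apart from other such genes. Both comparisons use the same IL-1β libraries, the lists share genes, and these are abundances, so decay rates were not measured. The lists were chosen with earlier results of these data known, and action of the proteins on these mRNAs was not tested.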

How the data were processed

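Poly(A) RNA of A549 cells was sequenced by the authors from TruSeq stranded libraries. They quantified reads with kallisto and normalized them with sleuth on GRCh38/hg38 (kallisto and sleuth are named without versions in the sources used here), and deposited a normalized signal in TPM per gene and library. No read counts are in this table, so depth per library is unknown. A deposited table of the authors' own comparisons, with fold changes and adjusted p-values, was not used. In the TPM table, 1 library that no label describes, an NS library of 6 h, was left out. The 6 h NS group is therefore smaller than most, and all 6 h comparisons with NS rest on it.

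Groups followed the sample labels. Genes reaching 1 TPM in 3 or more libraries (13327 of 19652) were tested on log2(TPM + 0.5) with limma 3.58.1 in R 4.3.3, with 1 mean per group, 58 residual degrees of freedom, a trend in the prior variance, two-sided tests and Benjamini-Hochberg adjustment within each of 40 comparisons. Fold changes on this scale understate the changes of low genes. The labels speak of independent experiments but do not say that a number marks a shared experiment, so p-values measure the spread between these samples, and they speak of 3 experiments at 12 h, where 3 of the groups hold 4 libraries. Same-numbered libraries deviated together in most comparisons (r from −0.12 to 0.83, and every pair over 0.1 in 22 of 25 comparisons), and the fit with the number as a block was an alternative.

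The members, the gene lists and the motifs were chosen with earlier results of these data known, and the transcript length comparison was added after seeing the values. The text names the 7 members, the 3 genes most like each by correlation, and genes of the lists, of which some items are not reported here. On simulated data for IL-1β against NS at 6 h over 13327 genes, 47 of 50 genes changed 2.5-fold were called. A change of 1.5-fold lies below the limit of 1 on the log2 scale, and of 50 such genes 1 was called and 18 passed. When no gene was changed, 5 passed and none was called. Alternatives were other pseudocounts, filters and normalizations, a fit within the compared times, the block, and leaving out libraries. Gene positions are from GENCODE 44 and promoter sequences from RefSeq (GRCh38.p14).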

Additional observations from a re-analysis of the deposited data

Results flagged for a closer look

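In 126 sets of 4 values (7 members in 18 groups), 7 values lay far from the other 3 of the group, a number close to the share of about 1 in 20 that chance gives. ZFP36L2 held 31.2 TPM in budesonide library number 3 at 6 h, against 23.6 to 24.1 TPM in the others. ZC3H12A held 9.91 TPM in NS library number 4 at 2 h (6.27 to 6.73 TPM in the others) and 138 TPM in IL-1β-plus-budesonide library number 2 at 24 h (152 to 153 TPM). ZC3H12C held 1.24 TPM in budesonide library number 3 at 2 h, one of the libraries that stand apart (3.02 to 3.17 TPM in the others), and 4.50 TPM in IL-1β-plus-budesonide library number 2 at 24 h (7.05 to 7.17 TPM). RC3H1 held 8.15 TPM in budesonide library number 2 at 2 h (1.61 to 2.73 TPM), and RC3H2 13.7 TPM in NS library number 1 at 1 h (11.2 to 11.5 TPM).

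The response differed between 6 h and 1 h by at least 1 (log2), with the difference itself past the test, for 3 members. For ZFP36 it was lower at 6 h by −4.46 (log2) with IL-1β and by −2.42 with IL-1β-plus-budesonide. For ZFP36L2 it was lower by −1.11 with IL-1β, and by −0.9991 without NS library number 4 at 6 h. For ZC3H12C it was higher by 1.67 with IL-1β and by 1.46 with IL-1β-plus-budesonide. The change also passed, at less than 1, for ZFP36L1 (−0.60 with IL-1β, 0.58 with budesonide and −0.84 with IL-1β-plus-budesonide) and for ZC3H12A (0.93 with IL-1β-plus-budesonide). The cotreatment values reached −1.0002 for ZFP36L1 without NS library number 4 at 6 h, and 1.03 and 1.24 for ZC3H12A without NS library number 1 at 1 h or number 4 at 6 h.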

How the results depend on the processing

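Members called in the comparisons with NS numbered 15 with IL-1β, 10 with budesonide and 16 with cotreatment over the 5 times, and leaving out each library in turn gave 14 to 15, 10 and 16 to 17. Cotreatment against IL-1β gave 3 (2 to 4), against budesonide 11 (11 to 12), the departure from the sum 5 (4 to 7), the change with time 5 (5 to 7) and NS over time 0. With a mean of at least 5 TPM, which removes ZC3H12C from testing, the change with time gave 3 in place of 5. Under that filter IL-1β against NS gave 11, cotreatment against NS 12 and cotreatment against budesonide 8. Quantile normalization gave 13 for IL-1β against NS and 6 for the departure from the sum. A pseudocount of 1 TPM gave 14 for IL-1β against NS and 10 for cotreatment against budesonide. With the replicate block the counts were 15, 10, 16, 3, 11, 5, 5 and 0, and no call of a member changed. On the TPM scale the ZC3H12A departure from the sum turned round, to 13.2, 56.5 and 19.2 TPM at 2, 6 and 24 h. Rescaling moved the median of all genes by at most 0.0813 (log2). Without read counts the precision of low members such as ZC3H12C cannot be set from depth.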
